A study of Mus musculus with 12 samples.

Results

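Connexins are the subunits of gap junctions. Connexin proteins assemble into a ring in the membrane, and the rings of neighbouring cells dock to form a channel that carries current from cell to cell. In the atria, connexin 43 (Gja1) and connexin 40 (Gja5) couple cardiomyocytes, connexin 45 (Gjc1) is best known from the nodes and from early heart tubes, and connexin 37 (Gja4) lines arteries. The genes described here are 7 connexins of cardiomyocytes and vessels in the left atrium (LA), Gja1, Gja5, Gjc1, Gjd3, Gja3, Gja4 and Gjc3. They were found by gene name among 54658 names in a table of RNA-sequencing counts, in which all 7 were present, and the rule that picks them uses names and no measured value.

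The study asked what Notch signalling in adult atrial cardiomyocytes does to gene expression. Total RNA of the whole LA was sequenced from 6 iNICD mice, which carried αMHC-rtTA and tetO_NICD, and from 6 littermate controls, which carried αMHC-rtTA alone. The αMHC promoter drives the transactivator in cardiomyocytes, and doxycycline then switches on the Notch intracellular domain (NICD). All 12 mice, controls included, were on a mixed background, were 2 to 3 months old and ate doxycycline chow for 3 weeks, without a washout before harvest. The controls were 4 females and 2 males, and the iNICD mice were 3 females and 3 males. Because the libraries are from bulk tissue, fewer cells of a type and less RNA per cell cannot be told apart in any value below.

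Libraries held between 21432632 and 27182038 counts. Notch1, read as a check of the NICD transgene, had between 2335 and 3311 counts in controls and between 71187 and 107667 in iNICD libraries, with no overlap. Control replicate 5, a male, stood apart from the rest, at -77.4 on the first principal component against -20.2 to 7.98 for the other controls, and values that rest on it are given with and without it where they moved. The tissue was atrial by its markers, since atrial myosin light chains Myl7 and Myl4 were abundant in every library. Of 8 atrial cardiomyocyte markers, 5 fell in iNICD LA and none rose, beside 1.34% and 2.78% of all tested genes, although the call of Myl7 was lost in 8 of 12 fits that each left out 1 library. Among the 5 was Nppa, the atrial natriuretic peptide, which fell by 2.33 on the log2 scale (SE 0.28, adjusted p = 0.000339, edgeR quasi-likelihood test).

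None of the 6 connexins that could be tested differed between iNICD and control LA. The edgeR quasi-likelihood test called 0 of 6, against 4.12% of the 13541 genes tested, at an adjusted p threshold of 0.05. Without adjustment 0 of 6 were under 0.05, against 17.4% of all genes. DESeq2 called 0 of 6 beside 7.82% of all genes, and the exact test of edgeR 0 of 6 beside 5.69%. No connexin had groups that did not overlap, which was true of 3.83% of all genes. The median log2 fold change of the 6 was 0.09, beside -0.01 over all tested genes. Leaving out control replicate 5 again gave 0 calls, beside 5.9% of all genes, and a median of 0.07. The intervals below give the size of change that these libraries leave possible for each gene, in normalized CPM, which are counts scaled to the library total by the TMM method.

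**Figure D1:**
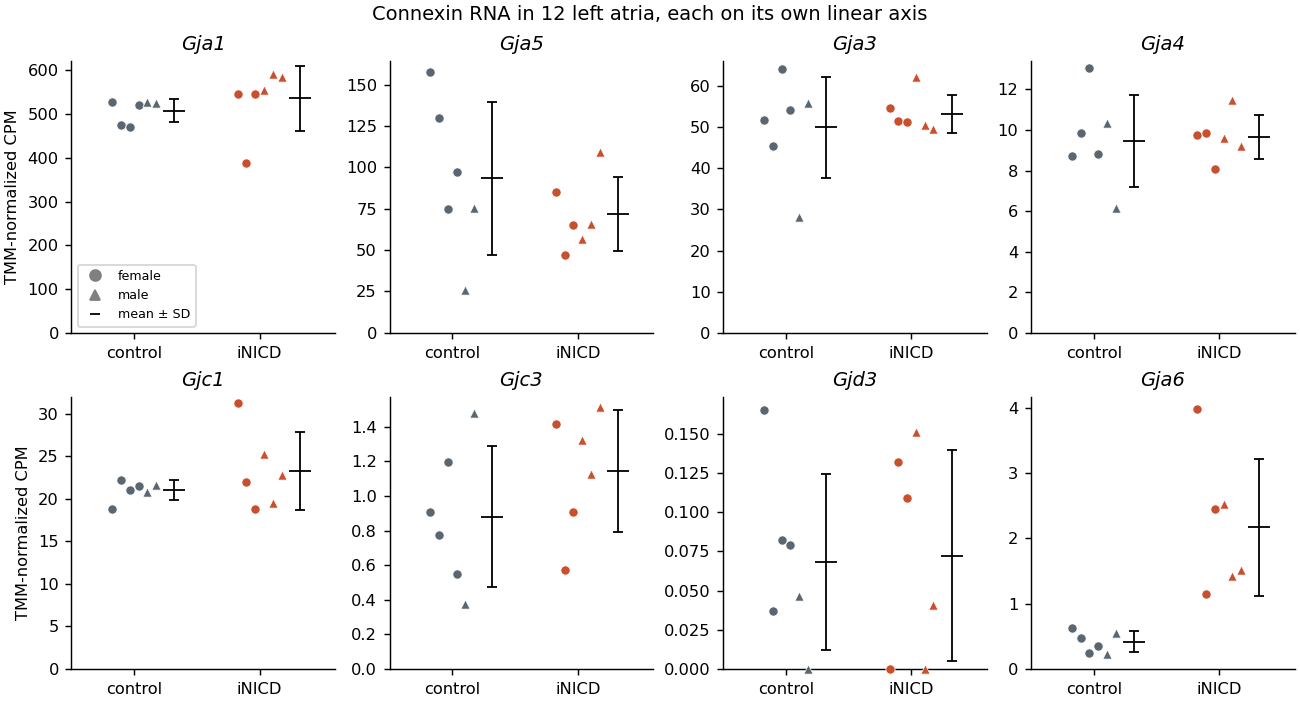
TMM-normalized CPM of 7 connexins and of Gja6 in each of 12 LA libraries, by group, each panel on its own linear axis from 0; circles are females, triangles males, and the bar is the mean ± SD of 6 libraries. Every connexin overlaps between groups except Gja6, which lies between 0.234 and 0.620 in controls and between 1.14 and 3.97 in iNICD LA.

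Gja1, the principal gap junction protein of working myocardium, was the most abundant connexin. In controls it lay between 471 and 527 normalized CPM with a median of 523, and in iNICD LA between 389 and 592 with a median of 550. Of the 6 iNICD libraries, 5 were above every control, and the remaining one, replicate 2, was below every control. The means were 508 ± 27.1 and 535 ± 74.4 (SD, n = 6 each). The log2 fold change was 0.08 (SE 0.09, adjusted p = 0.712), and its 95% interval ran from a 0.916-fold to a 1.21-fold level. Without iNICD replicate 2 the log2 fold change was 0.15 (SE 0.06, adjusted p = 0.230), under 0.05 before adjustment and not after.

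Gja5 encodes connexin 40, the fast-conducting connexin of atrial muscle and of the His-Purkinje system, and it also occurs in arterial endothelium. It varied far more than Gja1. The 6 controls had 158, 130, 75.0, 97.1, 25.97 and 75.5 normalized CPM in the order of their replicate numbers. The 6 iNICD libraries had 84.9, 47.0, 65.4, 57.0, 66.0 and 109. Both the highest and the lowest value belonged to controls, and the iNICD libraries fell inside the range of the controls. The log2 fold change was -0.39 (SE 0.34, adjusted p = 0.593), with a 95% interval from a 0.460-fold to a 1.27-fold level. Without control replicate 5, which held the lowest value, the difference was -0.58 (SE 0.24, adjusted p = 0.200), under 0.05 before adjustment and not after.

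The direction for Gja5 was not the same in both sexes. Female controls lay between 75.0 and 158 normalized CPM and female iNICD LA between 47.0 and 84.9, a log2 fold change of -0.80 (SE 0.27, adjusted p = 0.175, 4 against 3). In males, controls had 25.97 and 75.5 and iNICD LA lay between 57.0 and 109, a log2 fold change of 0.60 (SE 0.52, adjusted p = 0.799, 2 against 3). The edgeR test of the interaction gave 1.41 for males minus females (SE 0.61). It was under 0.05 before adjustment, and its adjusted p over all genes was 0.916. For none of the 13541 genes tested did this interaction pass the threshold, and 501 genes, or 3.7%, were under 0.05 unadjusted. One of the 2 male controls is replicate 5, so sex and that library cannot be told apart for this gene.

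**Figure D2:**
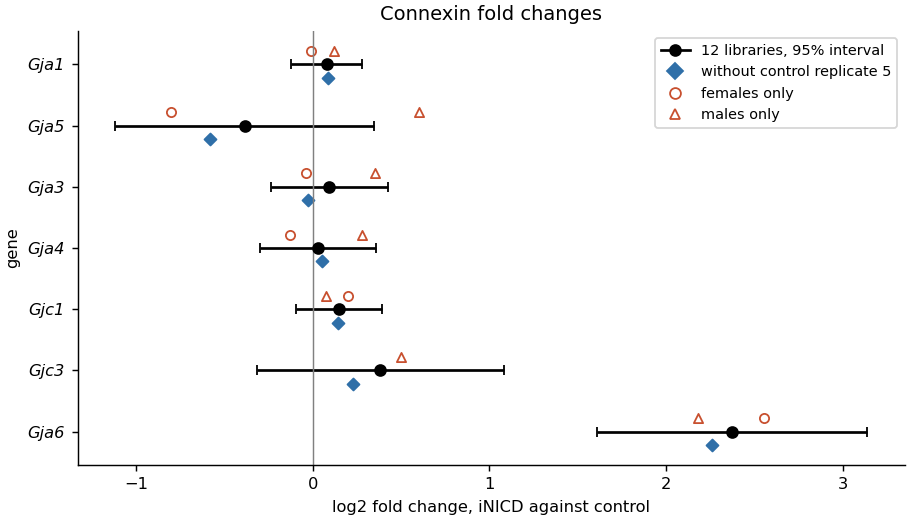
Log2 fold change of 6 connexins and Gja6 in iNICD against control LA (horizontal axis); black points with bars are the fit on 12 libraries with its 95% interval, diamonds the fit without control replicate 5, open circles females only and open triangles males only. Intervals of the 6 connexins cross 0, the Gja5 points for females (-0.80) and males (0.60) lie on opposite sides of 0, and Gja6 lies at 2.37; Gjc3 was too low to be tested in females alone.

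The Gja5 transcript was also compared with Gja1 inside each library, where library size cancels. The log2 ratio of Gja5 to Gja1, both per kilobase, was -1.80 ± 0.93 in controls and -2.11 ± 0.33 in iNICD LA (SD, n = 6 each). Controls ran from -3.51 in replicate 5 to -0.91, and the iNICD libraries from -2.45 to -1.58, inside that range. The difference of -0.31 was within the spread (two-sided exact permutation test over 924 splits, p = 0.468, smallest possible 0.00216). That result rested on 1 library, since without control replicate 5 the difference was -0.65 with an exact permutation p of 0.0216.

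**Figure D3:**
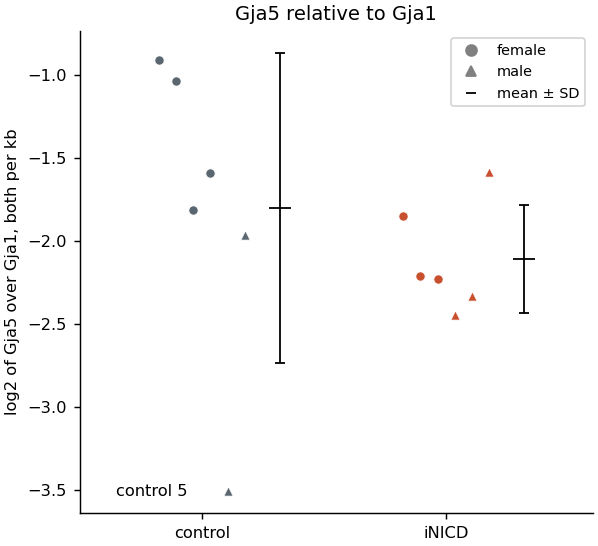
Log2 ratio of Gja5 to Gja1, both as counts per kilobase of deposited gene length (vertical axis), in each control and iNICD LA; circles are females, triangles males, and the bar is the mean ± SD of 6 libraries. Control replicate 5 lies at -3.51, apart from the other controls, and the iNICD libraries lie between -2.45 and -1.58.

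Gjc1, connexin 45, forms channels of low conductance and is the main connexin of the sinoatrial and atrioventricular nodes. Controls lay close together, between 18.8 and 22.2 normalized CPM with a median of 21.3, whereas iNICD LA spread from 18.8 to 31.3 with a median of 22.4. Of the 6 iNICD libraries, 3 were above every control. The log2 fold change was 0.15 (SE 0.11, adjusted p = 0.532), with an interval from a 0.936-fold to a 1.31-fold level. Of the nodal transcription factors, Tbx3 at a log2 fold change of -0.31 (adjusted p = 0.402) and Shox2 at -0.08 (adjusted p = 0.934) did not pass the test.

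Gjd3 encodes a connexin of the mouse atrioventricular node. It was close to absent from the LA, with 21 counts in 12 libraries, of which 10 were in controls and 11 in iNICD LA, and never more than 4 in a library. It had 0 counts in 3 libraries. It failed the filter for testing, and the edgeR fit with no filter, which called 1.68% of all genes, gave an adjusted p of 0.990.

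Gja3, connexin 46, is known as a connexin of the lens fibre cell. In the LA it was among the 3 most abundant connexins. Controls ran from 28.2 in replicate 5 to 64.3 normalized CPM with a median of 53.0, and iNICD LA from 49.6 to 62.1 with a median of 51.5. All iNICD values were inside the control range. Its log2 fold change was 0.09 (SE 0.15, adjusted p = 0.795), with an interval from a 0.848-fold to a 1.34-fold level, and without control replicate 5 it was -0.03 (SE 0.09). None of the 50-base words of its transcripts occurred in a transcript of another gene.

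Gja4, connexin 37, joins endothelial cells of arteries. It lay between 6.14 and 13.05 normalized CPM in controls, with a median of 9.31, and between 8.09 and 11.5 in iNICD LA, with a median of 9.66. Its log2 fold change was 0.03 (SE 0.15, adjusted p = 0.948), with an interval from a 0.811-fold to a 1.28-fold level. Of 8 pan-endothelial markers none passed the test in either direction, beside 4.12% of all tested genes. Their median log2 fold change was -0.14 (-0.09 without control replicate 5). Their summed level was between 823 and 1133 normalized CPM in controls and between 756 and 929 in iNICD LA. The highest control was replicate 5, and the others reached 989. Among 7 arterial endothelial markers 1 rose, Hey1, which is also a Notch target, and none fell, beside 2.78% and 1.34% of all genes.

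Gjc3, connexin 29, is known from myelinating glia. It was scarce, with between 8 and 37 counts in a library. Controls lay between 0.374 and 1.48 normalized CPM with a median of 0.841, and iNICD LA between 0.572 and 1.51 with a median of 1.22. The log2 fold change was 0.38 (SE 0.32, adjusted p = 0.582), with an interval from a 0.801-fold to a 2.11-fold level, the widest upward limit of the 6. It only just passed the filter. Of 6 tested Schwann and glial markers none passed the test, beside 4.12% of all tested genes, with a median log2 fold change of 0.14. Without control replicate 5 the median was 0.09 and 1 of the 6 was called, beside 5.9% of all genes. This was Mbp, a myelin protein, which was lower at -0.31 (SE 0.08, adjusted p = 0.0381). About 1.44% of the 50-base words in the Gjc3 transcripts were shared with other genes, against 0% for Gja3 and Gja4.

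Levels between genes can be compared only per length, here as normalized CPM per kilobase of the deposited gene length. In controls Gja1 was at 49.5 ± 2.64, Gja3 at 16.9 ± 4.15, Gja5 at 16.3 ± 8.04, Gja4 at 5.62 ± 1.35, Gjc1 at 4.198 ± 0.237, Gjc3 at 0.202 ± 0.0938 and Gjd3 at 0.0817 ± 0.0672 (SD, n = 6). The order was the same in iNICD LA. Gja3 exceeded Gja5 in 4 of 6 controls and in 5 of 6 iNICD libraries (exact sign-flip permutation tests, p = 0.5 and 0.0625, two-sided). None of the 12 comparisons of neighbours passed the threshold after adjustment, so these tests do not separate neighbours in the order. The counts of libraries are given as a description. Gja1 exceeded Gja3 in 6 of 6 libraries of each group, with the smallest p that 6 libraries allow, 0.0313, and 0.0625 after adjustment over 12 such comparisons. Gja4 exceeded Gjc1 in 5 of 6 libraries of each group (exact permutation p = 0.0625 in each).

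The order depended on the length used. The deposited length is 10257 bases for Gja1 and 5746 for Gja5, whereas the transcript of each gene with the longest coding sequence has 3182 and 3668 bases. Per kilobase of that transcript, Gja1 rose to 159.5 and Gja5 to 25.5 in controls, above Gja3 at 18.1, and Gjc1 at 9.08 passed Gja4 at 5.62. Gja1 came first and Gjd3 last on both scales.

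Taken as shares of the summed level per kilobase of 20 connexins, the 7 genes together made up 95.5% in the library where their share was lowest. Gja1 contributed 52.4% ± 6.68 in controls and 53.9% ± 3.05 in iNICD LA, Gja3 17.6% ± 3.75 and 18.8% ± 2.59, and Gja5 16.5% ± 7.15 and 12.7% ± 2.96 (SD, n = 6 each). In control replicate 5 the share of Gja5 was 5.69% and that of Gja1 64.7%, the lowest and the highest of all 12 libraries. The summed level itself was 95.3 ± 9.22 in controls and 96.5 ± 10.3 in iNICD LA. Shares and sum use the deposited gene length. Per kilobase of transcript, where Gja1 was at 159.5 and Gja3 at 18.1 in controls, shares were not computed and would differ.

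**Figure D4:**
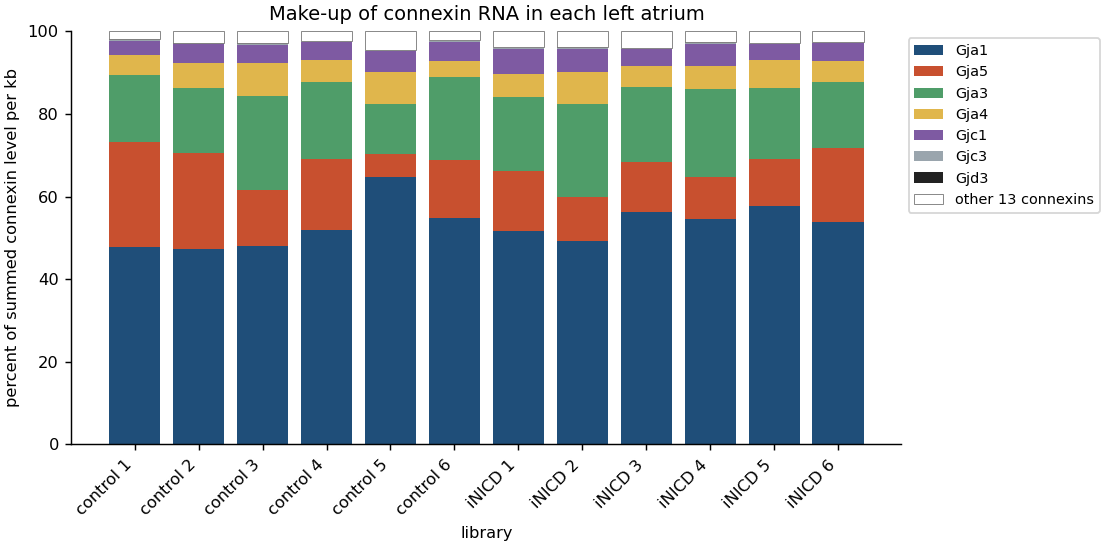
Share of each connexin in the summed normalized CPM per kilobase of 20 connexins (vertical axis, percent) in each of 12 LA libraries, control replicates first. Gja1 takes between 47.4% and 64.7% of every bar, and Gja5 is smallest in control replicate 5, at 5.69%.

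Gja5 was the connexin least alike between mice of a group. The SD within groups of log2(normalized CPM + 0.5) was 0.71 for Gja5, higher than in 96.5% of all tested genes, against 0.17 for Gja1, 0.30 for Gja3, 0.26 for Gja4, 0.19 for Gjc1 and 0.39 for Gjc3. The median over all tested genes was 0.21. Without control replicate 5 the SD of Gja5 was 0.45, still higher than in 92.5% of genes, whereas that of Gja3 fell to 0.15, higher than in 42.1%. The SD of Gja5 was 0.90 in controls and 0.43 in iNICD LA, and that of the controls was 0.47 without replicate 5.

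**Figure D5:**
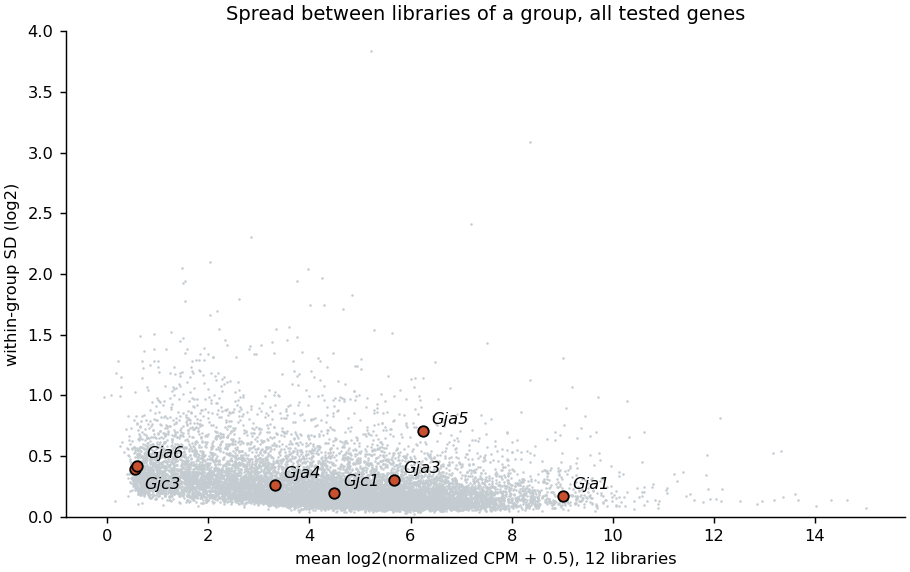
SD of log2(normalized CPM + 0.5) within groups (vertical axis) against its mean over 12 libraries (horizontal axis) for 13541 tested genes in grey, with the connexins in orange. Gja5, at an SD of 0.71, lies above most genes of its level, while Gja1 and Gjc1 lie among them at 0.17 and 0.19.

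The pattern of a gene over the 12 mice was compared with those of all other genes after the group means were removed, by the lower of the Pearson correlations with and without control replicate 5. These correlations are a description, and the part of differences in depth or RNA quality between libraries in them was not tested. For Gja5 the genes most alike were Samd14 (0.86), Mapk8ip1 (0.85) and Gm37735 (0.83). Gja1 went most closely with Zcchc17 (0.94), Gm6472 (0.94) and Rps24-ps3 (0.93), Gja3 with Anapc5 (0.94), Ubxn2b (0.91) and Bzw2 (0.91), and Gjc1 with Hpf1 (0.90) and Particl (0.86). No member of the 7 was among the genes most like another. Between Gja1 and Gja5 the correlation was 0.20, and 0.48 without control replicate 5, while between Gja3 and Gja5 it went from 0.55 to -0.56.

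The rest of the connexin and pannexin family, 16 genes, held 5 that could be tested. Gja6, the X-linked connexin 33 known from the testis, rose, and Gjb5, Panx1 and Panx2 did not pass the test, with log2 fold changes of -0.37, -0.14 and -0.10. Gja6 had 15, 13, 6, 9, 5 and 12 counts in the controls and 98, 26, 67, 67, 34 and 37 in iNICD LA, in the order of their replicate numbers. The groups did not overlap, and the log2 fold change was 2.37 (SE 0.35, adjusted p = 0.00173), with an interval from a 3.05-fold to an 8.81-fold level. Gja6 passed the filter only through the iNICD libraries. With no filter its log2 fold change was 2.37 (SE 0.35, adjusted p = 0.00130), and in males alone 2.18 (SE 0.54, adjusted p = 0.546). Even in iNICD LA its level per kilobase, 1.08 ± 0.520, was far below that of Gja1, 52.2 ± 7.25, and it made up 1.10% ± 0.483 of the connexin sum against 0.213% ± 0.0712 in controls.

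Gja6 overlaps another annotated gene on the same strand, with no exon in common, and the part of unspliced RNA of that gene in the Gja6 counts was not tested. None of the 50-base words of Gja6 occurred in another gene, Gja1 included. The coding sequences of Gja1 and Gja6 were the most alike of any pair among the 7 connexins and Gja6, with 74.6% of 837 aligned bases identical, but their longest identical run was 24 bases, shorter than a read. It is shown as the stretch on which the 2 genes are hardest to tell apart, from base 178 of either coding sequence (GENCODE, GRCm38).
Gja1 and Gja6 shared run: ggttgtgaaaatgtctgctatgac

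NICD acts on genes together with the DNA-binding protein RBPJ. The 250 bases before the RefSeq start (GRCm38.p6) of each connexin with an entry were searched on both strands for the RBPJ core TGGGAA, the E-box CACGTG of HES and HEY proteins, the T-box core AGGTGT, the NKX2-5 motif TNAAGTG, the SP1 box GGGCGG and the GATA motif AGATAA. The promoter set used here held entries for Gja1, Gja3, Gja4, Gja5, Gjc3 and Gja6, and none for Gjc1 and Gjd3, which were not searched. The Gja6 window held none of the 6 motifs. No window of these connexins held the RBPJ core or the E-box, which occur in 21.6% and 6.02% of 32851 promoter windows of that length. Shown are Gja1 and Gja5, the connexins of atrial muscle, with matches in capitals and each strand read 5′ to 3′ towards the gene. The Gja1 window, chr10:56377050-56377299 on the plus strand, holds 1 GATA match on its reverse strand, and the Gja5 window, chr3:97032152-97032401 on the plus strand, holds 1 SP1 box. A GATA motif is present in 9.99% and an SP1 box in 32.7% of all windows.
Gja1: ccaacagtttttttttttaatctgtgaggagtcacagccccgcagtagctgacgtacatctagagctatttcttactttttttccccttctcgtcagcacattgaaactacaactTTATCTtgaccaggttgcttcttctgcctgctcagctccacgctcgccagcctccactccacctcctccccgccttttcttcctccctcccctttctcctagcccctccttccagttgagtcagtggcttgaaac
Gja5: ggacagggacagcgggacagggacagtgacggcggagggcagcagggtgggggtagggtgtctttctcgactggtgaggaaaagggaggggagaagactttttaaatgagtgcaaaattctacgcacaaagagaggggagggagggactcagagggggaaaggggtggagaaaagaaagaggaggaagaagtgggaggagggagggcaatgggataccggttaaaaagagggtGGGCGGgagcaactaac

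Proteins that hold connexins at the intercalated disc, or move and degrade them, were listed as partners, and 26 of 27 names were tested. Of these 3 rose and 0 fell, beside 2.78% and 1.34% of all genes, and their median log2 fold change was 0.02. Plakoglobin (Jup), which links desmosomes and adherens junctions to the cytoskeleton, went from 259 ± 28.6 to 333 ± 21.7 normalized CPM (log2 fold change 0.36, SE 0.08, adjusted p = 0.0217). Ankyrin G (Ank3), which anchors sodium channels, went from 167 ± 13.6 to 210.3 ± 17.7 (0.34, SE 0.07, adjusted p = 0.0200), and neither gene overlapped between groups. Desmoglein 2 (Dsg2), a desmosomal cadherin, went from 152 ± 25.8 to 216 ± 28.8 with overlapping groups (0.50, SE 0.13, adjusted p = 0.0427), a call that was lost in 9 of 12 fits that each left out 1 library. The call of Jup was lost without iNICD replicate 4 or 6 (adjusted p = 0.0511 and 0.0502), and that of Ank3 without control replicate 1, iNICD replicate 1 or iNICD replicate 4 (adjusted p between 0.0510 and 0.0613). With the replicate number as a block, Jup lost its call under both numberings. Ank3 lost its call under the title numbers and Dsg2 under the description numbers. Tjp1, the ZO-1 scaffold that binds connexin 43, had a log2 fold change of 0.13 (SE 0.10, adjusted p = 0.551). The same 3 genes passed without control replicate 5, with a median of 0.05 over the list.

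Transcription factors known to act on connexin genes in the heart were 24, of which 21 could be tested, with 2 higher and 1 lower, beside 2.78% and 1.34% of all genes, and a median log2 fold change of 0.00. The list was chosen with earlier results of these data known, and both genes that rose are Notch targets. Hes1 and Hey1, repressors that are direct Notch targets, rose by 2.07 (SE 0.14, adjusted p = 1.82e-06) and 1.77 (SE 0.14, adjusted p = 5.58e-06) on the log2 scale. Tbx5, an activator of Gja5, went from 428 ± 82.3 to 268 ± 24.8 normalized CPM with no overlap between groups (log2 fold change -0.67, SE 0.12, adjusted p = 0.00494). Among the other activators, Nkx2-5 had a log2 fold change of 0.00 (SE 0.15, adjusted p = 0.9997) and Gata4 of 0.19 (SE 0.07, adjusted p = 0.147). Tbx3 and Tbx2, repressors of Gja1 and Gja5, had -0.31 (SE 0.18, adjusted p = 0.402) and -0.53 (SE 0.21, adjusted p = 0.217). The same 3 factors passed without control replicate 5, with a median of -0.02 over the list. Control replicate 5, in which Gja5 was lowest, held the highest Tbx5 value of its group, 578 normalized CPM. This is 1 library that stood apart from the rest, and a link between Tbx5 and Gja5 was not tested.

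On GRCm38 Gja1 lies at chr10:56377330-56402513 (plus strand), Gja3 at chr14:57034460-57058100 (minus), Gja4 at chr4:127311421-127314039 (minus), Gjc1 at chr11:102799579-102819700 (minus), Gjc3 at chr5:137953461-137963098 (minus) and Gjd3 at chr11:98982180-98983016 (minus), and none of these spans overlaps another annotated gene. Gja5, at chr3:96904693-97077416 on the plus strand, spans 4 other genes, and it shares exon bases with Gpr89 on the opposite strand. Of the 50-base words in its annotated transcripts 13.2% also occur in Zfp697, so part of its counts is uncertain.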

How the data were processed

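RNA of 12 LA was sequenced by the authors after ribosomal RNA removal, as stranded single-end reads of 50 bases. The authors deposited raw counts on mm10, 1 row for each gene name and not normalized, with a gene length in bases. The labels name cutadapt, STAR 2.4.2a, Subread, featureCounts and edgeR. The methods describe a route with another STAR version, Subread and edgeR for both atria, and a TopHat2 and HTSeq route for the LA. Which of them made the table is not given in the sources used here. Total counts per library lay between 21432632 and 27182038. Reads carried no molecular identifiers, and p-values measure the spread between the mice of a group.

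Groups, replicate numbers and sex came from the sample titles and descriptions. The 7 members and the lists of family genes, partners, transcription factors and cell type markers were chosen with earlier results of these data known, so the choice is not independent of the data, although the rule for the members uses gene names alone. Genes named are the 7 members, members of a list that passed the test with a few that did not, and for each tested member the 3 genes most like it in pattern, apart from a few that are not reported here.

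Genes over 1 CPM in at least 6 libraries, 13541 in all, were normalized by TMM and tested two-sided by quasi-likelihood in edgeR 4.0.16 (R 4.3.3), with Benjamini-Hochberg adjustment over all of them. Standard errors and 95% intervals were derived from the F statistic. The test was first tried on simulated data. Single values were compared by exact permutation. Gene positions, transcripts and coding sequences are from GENCODE M21 (GRCm38), and promoters from RefSeq (GRCm38.p6). The replicate numbers were not taken as pairs in the main fit. After group means were removed, libraries of the same title number correlated at a mean of 0.121, with 4 of 6 pairs over 0.1. Of 12 libraries, 5 correlated best with the library of their own title number. By description numbers the mean was 0.138, with 4 of 6 pairs over 0.1 and 4 of 12 libraries best with their own number. Alternatives were other normalizations, filters and tests, DESeq2 1.42.0 among them, sex as a covariate, each sex alone, a replicate block, the counts without mitochondrial genes and each library left out in turn. The fit with sex as a covariate and without control replicate 5 was chosen after seeing the data.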

Additional observations from a re-analysis of the deposited data

Results flagged for a closer look

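Gja1 in iNICD replicate 2 was at 389 normalized CPM, whereas the other 5 iNICD libraries lay between 546 and 592. Its gap to the nearest of them was 0.772 of the whole range of the group, above the limit for 6 samples. The same check was made on 18 groups, and chance flags about 1 in 20, or 0.9 of these. The same library also held the lowest iNICD values of Gja5, at 47.0, and of Gjc3, at 0.572.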

How the results depend on the processing

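No connexin of the 7 passed the threshold under any alternative run, and the limits of each value are its interval and the 6 mice of a group. The direction of Gjc1 was positive throughout, and that of Gjc3 was positive in every fit that kept it. Gjc3 failed the filter in females alone and in each fit without iNICD replicate 1, 4, 5 or 6. Its dependence on those libraries was therefore not tested. Log2 fold changes turned sign in females alone for Gja1 (-0.0125), Gja3 (-0.0368) and Gja4 (-0.130), in males alone for Gja5 (0.60), and with sex as a covariate and without control replicate 5 for Gja3 (-0.0416). Leaving out 1 library at a time gave 0.04 to 0.15 for Gja1, -0.0292 to 0.18 for Gja3 (negative without control replicate 5), -0.0774 to 0.14 for Gja4 (negative without control replicate 6 or iNICD replicate 5), -0.58 to -0.17 for Gja5, 0.04 to 0.20 for Gjc1 and 0.23 to 0.51 for Gjc3, which could be fitted in 6 of these 12 fits.

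The Gja5 to Gja1 ratio differed by -0.76 in females alone, where each iNICD library was below each control (exact permutation p = 0.0571, the smallest that 4 against 3 allows), by 0.62 in males alone (exact permutation p = 0.5) and by -0.65 to -0.13 with 1 library left out, past the threshold only without control replicate 5. Gja6 was called in each of the 6 leave-one-out fits that kept it, and not in males alone. Those fits each left out a control, since Gja6 failed the filter when any iNICD library was left out. They do not show how its call depends on an iNICD library. Jup, Ank3 and Dsg2 kept their call in 10, 9 and 3 of 12 leave-one-out fits, and Myl7 in 4 of 12.

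Over all genes 558 were called, 377 higher and 181 lower. DESeq2 called 1059 (615 higher, 444 lower), the exact test of edgeR 770 (279 lower), males alone 9 (8 higher, 1 lower), and the fit with sex and without control replicate 5 818 (315 lower). Leaving out 1 library gave 351 to 797 calls, 252 to 487 higher and 90 to 310 lower, the most without control replicate 5. With a replicate block the counts were 468 by title numbers and 421 by description numbers, the Gja5 log2 fold change was -0.26 and -0.25, and no call of a connexin changed, but Jup lost its call under both blocks, Ank3 under the title numbers and Dsg2 under the description numbers. In each case the cause was not tested.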

Other observations

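Other cell type markers in the same libraries give the setting in which the connexins were measured. Markers of endocardium (3 genes), smooth muscle and pericytes (8), fibroblasts (6), epicardium (4) and macrophages (5) were tested. None passed the edgeR quasi-likelihood test in either direction, beside 4.12% of all tested genes. Their median log2 fold changes were -0.24, -0.12, 0.13, -0.30 and 0.14. Without control replicate 5 again none passed, beside 5.9% of all genes. The medians were then -0.09, 0.02, 0.10, -0.31 and 0.16, so that of smooth muscle and pericytes changed sign. That library held the highest summed smooth muscle and pericyte level, 855 normalized CPM against at most 690 in the other controls, and the highest endocardial level among controls, 413 against at most 409. Among controls it also held the highest macrophage level, 280 against at most 254, and the lowest epicardial level, 193.9 against at least 196.5. Of 4 ventricular markers 2 could be tested and neither passed. The summed level of the 4 ran from 21.2 to 2153 normalized CPM in controls and from 17.5 to 2227 in iNICD LA. Of the 2 tested, Myh7 was at 925 ± 806 in controls and 898 ± 822 in iNICD LA (SD). Myl3 was only at 1.77 ± 0.714 and 1.76 ± 0.740, and Irx4 was at 0 in every library. Besides Nppa, the atrial markers that fell were Myl4 by 0.75, Sln by 0.64, Myl7 by 0.54 and Tnnt2 by 0.44 on the log2 scale, whereas Myh6 at -0.03, Actn2 at -0.12 and Ryr2 at 0.07 did not pass the test. The part of these differences in the connexin values was not tested.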
